A study of Mus musculus with 16 samples.

Results

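Cytosolic ribosomal protein genes encode the protein subunits of the ribosome that translates nuclear mRNAs. They were chosen by name: protein-coding mouse genes called Rpl or Rps followed by digits, with Rplp0, Rplp1, Rplp2 and Rpsa, and without pseudogenes or the Rps6k kinases. The rule found 81 of 21887 protein-coding genes, 50 of the large subunit and 31 of the small subunit. For each gene the deposited window of 5000 bp whose midpoint lay nearest its transcription start site (TSS), and within 650 bp of it, was taken from 38053 distinct windows. Such a window was found for 78 genes, and no 2 genes shared one. Rpl13a, Rpl17 and Rpl32l had none, with the nearest midpoint 1131, 1349 and 60118 bp away. The start of 59 of the 78 genes came from a RefSeq promoter table of GRCm38.p6, the assembly called mm10, and that of 19 from whichever end of the gene lay nearer a window midpoint.

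The assay was ATAC-seq: a transposase cuts DNA that is open in chromatin and joins sequencing adaptors to it. The cells were mouse embryonic stem cells of the genotype labelled FOXD3-iKO, shared by all groups and kept in L2i medium. They received either tamoxifen (4HT), which induces loss of the forkhead factor FOXD3, or ethanol (EtOH) as the control, for 24 h. After DAPI staining they were sorted by DNA content into the fractions the labels call G1, ES, LS and G2, which makes 8 groups of 2 libraries. The labels give neither the driver of the recombinase nor the number of clones, and whether the 2 libraries of a group came from separate cultures is not given in the sources used here.

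The authors deposited 1 column of coverage signal for each group and none per library, so no value below has an SD over libraries. The smallest value of a column was read as the worth of 1 read. A level is the signal as a multiple of that worth, averaged over bases that hold a read, so a level of 1 means that no reads overlap and larger values mean that reads pile up. The implied depth was 6.78 to 11.2 M reads, lowest in 4HT G1 and highest in EtOH G2. Windows of 10 pluripotent-cell marker genes had a median level of 1.87 (Klf2 2.73, Pou5f1 2.65), and those of 6 of 8 fibroblast marker genes with a value in every column had 1.22. The window of Foxd3 stood at 1.50 to 1.65 in the 4HT columns and 1.23 to 1.63 in the EtOH columns, and accessibility there does not check the loss of the protein.

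Ribosomal protein genes are among the most transcribed genes of growing cells, and their products are needed in equal numbers for each ribosome. Most of their promoters in mammals are rich in CpG and lack a strict TATA box, and binding sites of ETS-family factors are common in them. Transcription begins at a C inside a run of pyrimidines, so that the mRNA opens with a 5' terminal oligopyrimidine (TOP) motif, through which mTORC1 signalling controls its translation. These genes also have many processed pseudogenes. How the authors treated reads with several matches is not given in the sources used here, and the part of such reads in the values was not tested.

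RefSeq promoter sequence (GRCm38.p6, 250 bases before to 50 after the start) was found for 61 of the 81 genes. The following 7 stretches were chosen because a TOP motif stands at the annotated start. Each runs 5' to 3' on the gene's own strand, 60 bases before the start and the first 20 transcribed bases, and capitals mark the pyrimidine run at the start.
Rps6, chr4:86857348-86857427, minus strand: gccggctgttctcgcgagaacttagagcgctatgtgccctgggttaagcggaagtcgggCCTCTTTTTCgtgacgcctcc
Rps18, chr17:33955646-33955725, minus strand: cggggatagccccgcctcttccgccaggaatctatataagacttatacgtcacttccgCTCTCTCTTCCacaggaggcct
Rps27, chr3:90213629-90213708, minus strand: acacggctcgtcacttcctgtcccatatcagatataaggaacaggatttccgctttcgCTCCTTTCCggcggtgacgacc
Rpl28, chr7:4792905-4792984, plus strand: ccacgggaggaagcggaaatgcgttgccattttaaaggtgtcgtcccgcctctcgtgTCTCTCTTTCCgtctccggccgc
Rpl15, chr14:18270967-18271046, minus strand: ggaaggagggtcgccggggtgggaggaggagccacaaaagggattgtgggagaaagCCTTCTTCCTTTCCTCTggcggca
Rplp2, chr7:141447591-141447670, plus strand: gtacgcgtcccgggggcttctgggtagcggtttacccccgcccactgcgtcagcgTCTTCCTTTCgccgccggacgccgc
Rps15a, chr7:118116128-118116207, minus strand: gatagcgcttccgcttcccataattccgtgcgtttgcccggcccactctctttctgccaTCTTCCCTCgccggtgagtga

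The run in Rps6, which encodes the S6 kinase substrate of the small subunit, is 10 bases long, and that in Rpl15 is 17. A C at the first transcribed base followed by at least 4 pyrimidines was found in 13 of 61 members (21.3%), against 380 of 17492 protein-coding promoters (2.17%). A run of at least 8 pyrimidines that overlapped the 5 bases on either side of the start was found in 21 members (34.4%), against 9.62% of all. Annotated starts can lie some bases from the starts used in these cells, and no match says only that the letters are not at the annotated base.

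The next 5 stretches were chosen because they carry an ETS core, CCGGAAG, close to the start. Capitals mark that core.
Rpl37, chr15:5116553-5116632, plus strand: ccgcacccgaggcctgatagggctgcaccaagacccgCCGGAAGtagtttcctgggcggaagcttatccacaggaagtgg
Rps21, chr2:180257319-180257398, plus strand: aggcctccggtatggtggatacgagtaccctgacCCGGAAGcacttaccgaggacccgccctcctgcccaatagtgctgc
Rps10, chr17:27635225-27635304, minus strand: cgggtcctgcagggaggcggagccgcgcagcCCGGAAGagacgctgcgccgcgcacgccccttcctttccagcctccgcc
Rpl38, chr11:114668520-114668599, plus strand: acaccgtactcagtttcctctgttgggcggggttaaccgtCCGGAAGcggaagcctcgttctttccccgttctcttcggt
Rpl31, chr1:39367791-39367870, plus strand: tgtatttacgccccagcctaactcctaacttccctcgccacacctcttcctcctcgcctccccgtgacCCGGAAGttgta

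In Rpl37, Rps21, Rps10 and Rpl38 the core lies upstream of the start, and in Rpl31 it lies within the first transcribed bases. On either strand and over the whole promoter, the core was found in 24 of 61 members (39.3%) and in 12.0% of all protein-coding promoters. Of its 29 matches, 20 were on the gene's own strand, and 12 began between base -60 and base 20. Both features are absent from the stretches of Rps19, one of the 2 most accessible members, and of Rpl22, whose window differed most from G1, shown here without capitals.
Rps19, chr7:24884532-24884611, plus strand: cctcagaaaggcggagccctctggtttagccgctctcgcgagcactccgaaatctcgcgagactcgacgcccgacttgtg
Rpl22, chr4:152325666-152325745, plus strand: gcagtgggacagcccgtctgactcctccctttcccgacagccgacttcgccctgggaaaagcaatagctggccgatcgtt

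The other motifs were searched on both strands, with overlapping matches of different motifs counted separately. The SP1-type motif GGGCGG was in 57.4% of members and 46.6% of all promoters, and the CREB-type motif TGACGTCA in 8.20% and 2.29%. The YY1-type motif AAGATGGC was in 6.56% of members and 3.26% of all promoters. The TATA-type motif TATAAA was in 9.84% and 13.4%, the E-box CACGTG in 8.20% and 7.94%, and the NRF1-type palindrome in 1.64% and 1.34%. These shares count matches anywhere in the promoter. The members' TATA-type matches began at base -96 or further upstream, or after the start, so 9.84% is no count of placed TATA boxes. CpG dinucleotides stood at a median of 0.857 of the number expected from base composition in members, against 0.581 in all promoters, while the GC content was alike (57.0% and 56.3%).

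**Figure D1:**
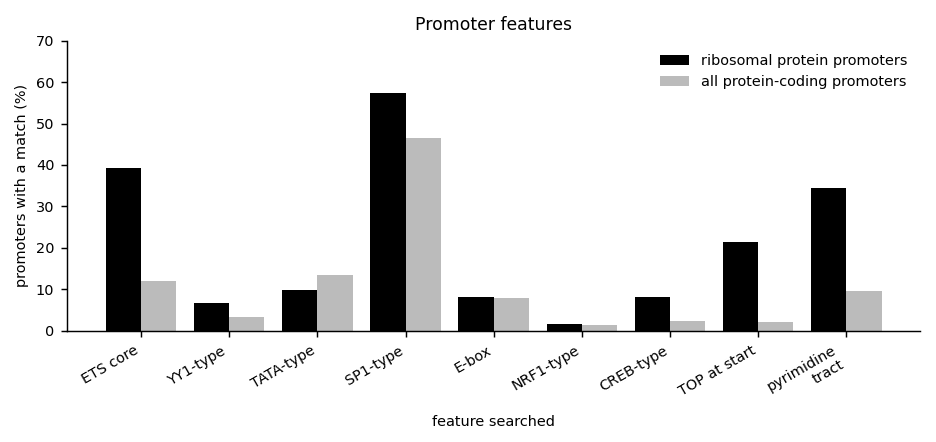
Share of promoters (percent, bars from 0) with a match to each feature, in 61 ribosomal protein promoters (black) and 17492 protein-coding promoters (grey), over 250 bases before to 50 after the RefSeq start. ETS core (39.3% against 12.0%), TOP at the start (21.3% against 2.17%) and pyrimidine run of 8 or more (34.4% against 9.62%) stand higher in the ribosomal protein promoters.

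Ribosomal protein windows stood in the upper part of the range of protein-coding promoters. Their median level was 1.67 (78 windows, range 1.26 to 2.69), against 1.36 for 18438 protein-coding windows with a value in every column. Of the 78, 76 (97.4%) lay above the protein-coding median and 41 (52.6%) above its upper quartile of 1.62. Small-subunit genes had a median of 1.78 and large-subunit genes one of 1.61, with wide overlap of their quartiles (1.54 to 1.89 and 1.48 to 1.85). Genes of other large housekeeping complexes had medians between these and the protein-coding median, with 1.50 for 74 mitochondrial ribosomal proteins, 1.58 for 39 proteasome subunits and 1.54 for 78 nuclear oxidative phosphorylation subunits.

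CpG content goes with the level over all protein-coding promoters and differs between members and the rest. Among promoters at or above 0.6 of the expected CpG number, 51 members had a median level of 1.62 and 7918 protein-coding promoters one of 1.53, against 1.53 and 1.21 below that limit. That stratum held 86.4% of the members with a promoter sequence and a level and 52.9% of all. Within the members, the level hardly followed CpG content (Pearson r -0.06, Spearman rho -0.08, 59 genes on the same 8 columns) and followed GC content weakly (r 0.24, rho 0.21). Members with and without an ETS core had medians of 1.63 and 1.61, and members with and without a TOP motif 1.58 and 1.62.

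The 4 most accessible members were Rpl36 (2.69), Rps19 (2.68), Rpl37 (2.49) and Rps21 (2.46). Rps19, a small-subunit assembly protein and the gene most often mutated in Diamond-Blackfan anaemia, stood at 2.18, 2.41, 2.75 and 3.25 in G1, ES, LS and G2 of the 4HT cells. In the EtOH cells it stood at 2.59, 2.31, 2.47 and 3.48, so that G2 was the highest fraction under both treatments. Rpl37, with the ETS core printed above, stood between 2.07 in EtOH ES and 3.27 in 4HT LS. Rps21 was more uneven, at 3.29 and 3.20 in G1 and G2 of the EtOH cells and at 1.91 to 2.91 in the other 6 columns. Each of the 4 genes stayed at 1.91 or more in all 8 columns, and their ranges overlapped throughout, so their order is not larger than the spread over columns.

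At the other end stood Rpl39l (1.26), Rps4x (1.34), Rpl24 (1.37), Rps15a (1.37) and Rpl19 (1.38). Rpl39l, a copy of Rpl39 used in male germ cells, was at 1 read in 4HT G1 and at 1.13 to 1.52 elsewhere, and it was the only member under the minimum level of 1.3 for testing. Rps4x, the X-linked small-subunit protein, ranged from 1.14 to 1.72. Rps15a, whose TOP motif is printed above, had the most even values of all members, with a coefficient of variation of 7.02% over the columns, against 35.6% for Rplp2 at the other extreme.

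**Figure D2:**
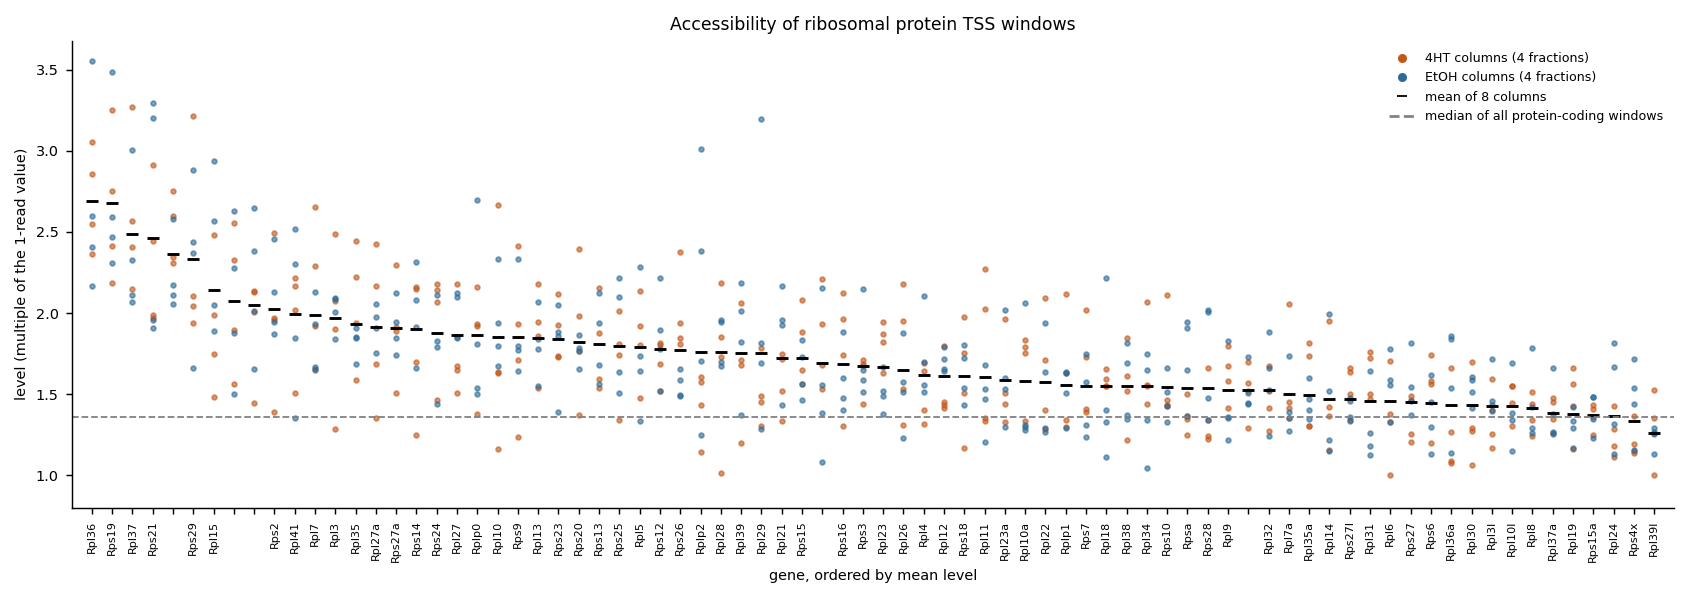
Level of each of the 78 ribosomal protein windows (vertical axis, multiple of the 1-read value) with genes ordered by mean level. Dots are the 8 pooled columns (orange 4HT, blue EtOH), bars their mean, some genes are unlabelled, and the dashed line is the protein-coding median of 1.36. All but 2 means lie above the line, and the dots of neighbouring genes overlap.

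By role, the 5S RNP proteins Rpl5 and Rpl11, which bind MDM2 when ribosome assembly is disturbed, stood at 1.79 and 1.61. The stalk proteins, which recruit the translation GTPases, stood at 1.87 (Rplp0), 1.76 (Rplp2), 1.61 (Rpl12) and 1.56 (Rplp1). Rps27a, made as a fusion with ubiquitin, stood at 1.91. Of the ribosomal proteins with other names, Fau, made as a fusion with a ubiquitin-like protein, stood at 1.81 and the scaffold protein Rack1 at 1.72. Among 5 decoding or regulatory small-subunit proteins, Rps2 at the mRNA entry was highest (2.03) and Rps6 lowest (1.45). The 9 genes listed for Diamond-Blackfan anaemia had a median of 1.61. The 4 paralogs, Rpl3l of muscle, Rpl10l and Rpl39l of the testis and the p53 target Rps27l, had the lowest median of the role groups, 1.43 (1.26 to 1.47).

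Position in the genome was broad: the 81 genes lay on 19 chromosomes, with 14 on chromosome 7 and 4 on the X chromosome. Small nucleolar RNA genes lay inside 27 of the 78 genes, and these hosts had a median level of 1.75, against 1.58 for the other 51. Another protein-coding start of the promoter table lay in the window of 12 members, such as Micos13 beside Rpl36 and Zc3h10 beside Rpl41. The window cannot tell which gene the reads belong to. Those 12 had a median of 1.55 and the other 66 one of 1.71. Genes missing from the promoter table were not searched, so 12 is a minimum and some of the 66 may share their window too. The 19 members whose start was taken from a gene end stood higher (1.82) than the 59 with a start in the promoter table (1.61).

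Other translation genes were close to the members. Values in every column were present for 12 of 14 listed translation factors and TOP genes, with a median of 1.76 and Hnrnpa1, an RNA-binding protein, highest at 3.51. For 16 ribosome biogenesis genes the median was 1.66, with Ncl, the nucleolar protein nucleolin, highest at 3.10 and Ubtf, a factor of RNA polymerase I, lowest at 1.24.

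Across columns the members' median level was lowest in the shallowest column, 4HT G1 (1.44), and highest in the deepest, EtOH G2 (1.86). Their median signal was also divided by the protein-coding median of the same column, and how far this ratio depends on depth was not tested. The ratio was 1.15 to 1.22 in the 6 columns of G1, ES and LS, and 1.29 and 1.27 in G2 of the 4HT and EtOH cells. The G2 columns were thus the 2 highest, with 87.2% and 89.7% of members above the protein-coding median, against 78.2% to 85.9% elsewhere. With 2 pooled columns in G2 this difference has no test of its own here, and the fitted G2 differences are given below.

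**Figure D3:**
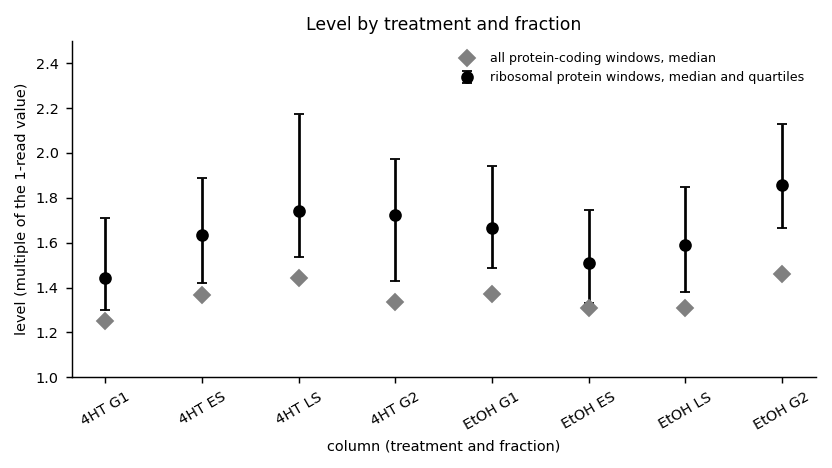
Level (multiple of the 1-read value) by column: black points and bars are the median and quartiles of the 78 ribosomal protein windows, grey diamonds the median of all protein-coding windows. The members' median runs from 1.44 in 4HT G1 to 1.86 in EtOH G2 and lies above the protein-coding median in every column.

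After 4HT no ribosomal protein window differed from the control beyond the spread between columns by the test used. The contrast was fitted in limma over all 15323 tested windows on log2(signal + 0.1), with treatment and fraction as terms and the 4 fractions as repeats. None of 77 tested members was called at a Benjamini-Hochberg adjusted p of 0.05, and the smallest adjusted p was 0.886. Over all windows 2 were called, a background of 0.0131%. At an unadjusted p of 0.05, 8 members passed (10.4%), against 5.28% of all windows. The median log2 difference of the members, 4HT minus EtOH, was 0.016, with 44 of 77 above 0 (57.1%), against a median of 0.00059 and 50.2% for all windows. The 95% limits lay 0.16 to 0.24 on either side of the estimate on the log2 scale (median 0.19) before adjustment. Larger differences than that also failed the adjusted test, as those of Rps26 and Rplp2 did. A pooled column also cannot tell fewer cells with an open promoter from less opening in each cell. The outermost ends of these limits were -0.49 for Rplp2 and 0.45 for Rps26.

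Rps26, a small-subunit protein at the mRNA exit and a Diamond-Blackfan anaemia gene, had the largest positive difference. Its level was 1.81, 1.84, 1.94 and 2.38 in G1, ES, LS and G2 of the 4HT cells and 1.66, 1.59, 1.50 and 1.49 in the EtOH cells. On this depth-scaled level the 4 values after 4HT lay above the 4 control values, but in the deposited signal the groups overlapped, with 0.175 after 4HT and 0.183 in the control in LS. After centring, the differences were 0.24, 0.09, 0.12 and 0.58, and the fitted log2 difference was 0.26 ± 0.10 (SE; adjusted p = 0.942). Rpl31, a large-subunit protein near the exit tunnel, stood at 1.72, 1.76, 1.47 and 1.50 after 4HT and at 1.13, 1.18, 1.26 and 1.64 in the controls, which overlap. Its difference was 0.21 ± 0.08 (adjusted p = 0.942).

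Rpsa, the small-subunit protein also known as the laminin receptor precursor, had the lowest difference among members of 1 sign in every fraction. It stood at 1.25, 1.36, 1.50 and 1.35 after 4HT and at 1.65, 1.36, 1.91 and 1.95 in the controls, with a difference of -0.19 ± 0.08 (adjusted p = 0.942). Rps28 followed at -0.18 ± 0.08 and Rpl6 at -0.13 ± 0.08. The lowest difference of all members was that of the stalk protein Rplp2, -0.29 ± 0.10 (adjusted p = 0.886), which did not keep 1 sign over the fractions. Rplp2 stood at 1.15, 1.43, 1.61 and 1.57 after 4HT and at 2.38, 1.25, 1.71 and 3.01 in the controls, so that the gap was widest in G1 and G2. In ES the 4HT value was higher on this scale (centred log2 difference 0.08) but not in the deposited signal (0.147 after 4HT, 0.149 in the control).

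Role groups were small and none had a called member. The 9 genes listed here for Diamond-Blackfan anaemia are a hand-made list that was not checked for completeness. It leaves out other members, such as Rps28 at -0.18 and Rpl31 at 0.21, whose place on such a list was not checked. All 9 had a difference above 0 (median 0.08, highest Rps26 at 0.26), against 44 of all 77 tested members. The shared sign describes the listed 9 alone and may not hold for a fuller list. All 4 X-linked members had one below 0 (median -0.12, lowest Rpl36a at -0.19). Both groups were chosen with results of these data known, and their genes share the same columns. Rpl5 and Rpl11 had differences of 0.08 and 0.17. The 27 snoRNA hosts had a median of -0.03 and the 50 other tested members one of 0.03. Rack1 and Fau lay at -0.14 and -0.07. Of the 12 tested translation factors 6 lay above 0, with Eif3e at 0.13, Eef1g at 0.09, Tpt1 at -0.14 and Eif4b at -0.11. Of the 15 tested biogenesis genes 9 did, with Wdr12 at 0.12, Myc at 0.12, Nolc1 at -0.09 and Bop1 at -0.06. No gene of these lists was called.

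Within single fractions there is 1 column for each treatment, so the differences are values without a test. Members spread more than other windows in G1, with a median absolute log2 difference of 0.21 against 0.12 for all tested windows, and 4 members (5.19%) past 0.5 in either direction against 1.40%. In ES, LS and G2 the members' median absolute differences were 0.11, 0.14 and 0.13, against 0.12, 0.12 and 0.12. In G1 the extremes, of which some were named after their values were seen, were Rpl11 at 0.74 and Rpl29 at -0.63. The lowest in ES was Rps25 at -0.52 and the highest in LS Rpl14 at 0.37, and the extremes in G2 were Rps26 at 0.58 and Rplp2 at -0.50. The 4HT G1 column is the shallowest, and the part of its depth in the spread was not tested.

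**Figure D4:**
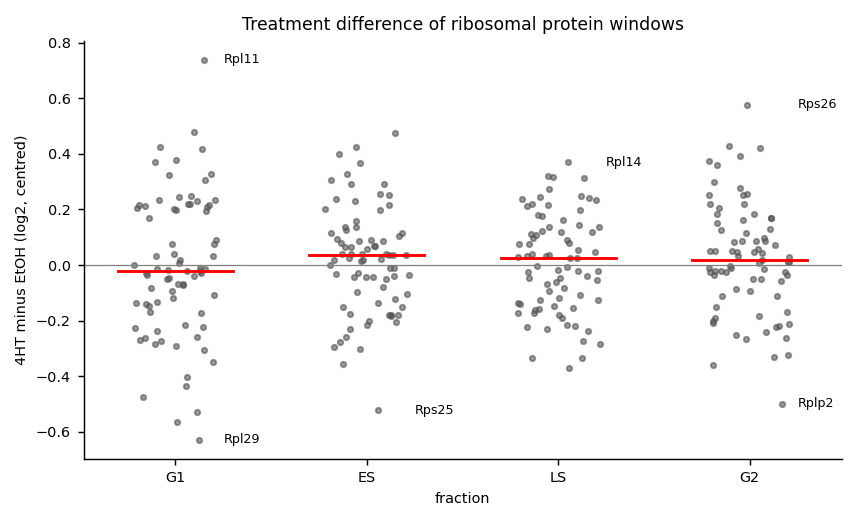
Centred log2 difference, 4HT minus EtOH, of the 77 tested ribosomal protein windows in each fraction (points are genes, red lines medians, spread sideways for legibility). The medians lie between -0.02 and 0.03, and the points reach furthest in G1, from -0.63 for Rpl29 to 0.74 for Rpl11.

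The cell cycle fractions were compared with G1, with treatment as the other term and the 2 treatments as repeats. The ES, LS and G2 contrasts share the G1 columns and are therefore not independent of each other. No member was called in any of the 3 in limma. Of 77 members, 7 passed an unadjusted p of 0.05 for ES against G1, 6 for LS and 2 for G2. The shares of all tested windows that passed it were 6.78%, 6.90% and 5.64%. The members' smallest adjusted p was 0.346, 0.164 and 0.566. The background of windows called after adjustment was 0.0196%, 0.0718% and 0.0457%. The members' median log2 differences were -0.019, -0.017 and 0.028, with 34, 34 and 47 of 77 above 0. The 95% limits lay 0.22 to 0.33 on either side of the estimates, wider than for the treatment because each fraction has 2 columns.

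Rpl22, a large-subunit protein known for its part in lymphocyte development, had the smallest p of any member in these contrasts. Its level was 2.09 and 1.94 in G1 of the 4HT and EtOH cells, 1.40 and 1.27 in ES, 1.28 and 1.29 in LS, and 1.71 and 1.64 in G2. Both G1 values lay above the other 6. The log2 difference from G1 was -0.42 ± 0.12 in ES (adjusted p = 0.346), -0.49 ± 0.12 in LS (adjusted p = 0.164) and -0.28 ± 0.12 in G2 (adjusted p = 0.83).

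Rpl29, a large-subunit protein also known to bind heparin, also stood highest in a G1 column, at 3.19 in EtOH, but at 1.49 in 4HT G1 and 1.28 to 1.82 in the other 6 columns. Its difference was -0.46 ± 0.14 in LS (adjusted p = 0.425) and -0.48 ± 0.14 in G2 (adjusted p = 0.566), with -0.86 and -0.74 in the EtOH cells and -0.05 and -0.22 in the 4HT cells, a contrast between treatments that was not tested. Rpl15, a core large-subunit protein, had fitted differences below 0 in every fraction, with -0.35 ± 0.15 in ES, -0.26 ± 0.15 in LS and -0.29 ± 0.15 in G2. In LS the centred difference was -0.08 in the 4HT cells and -0.44 in the EtOH cells. On the level scale Rpl15 stood higher in LS (2.48) than in G1 (1.99) of the 4HT cells. Rpl27a had -0.33 ± 0.14 in ES and -0.28 ± 0.14 in G2.

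In the other direction, Rps9, a small-subunit protein that helps keep decoding accurate, stood at 1.23 and 1.64 in G1, 1.71 and 1.80 in ES, 2.41 and 2.33 in LS and 1.93 and 1.77 in G2 (4HT, then EtOH). Its LS levels were the highest and the difference from G1 was 0.38 ± 0.14 (adjusted p = 0.548). Rps29, a small zinc-binding protein of the small subunit, stood at 3.22 and 2.88 in LS and at 1.94 and 1.66 in G1, a fitted difference of 0.39 ± 0.15 that did not pass the test (adjusted p = 0.603). In the deposited signal of the 4HT cells LS and G1 were close (0.290 and 0.286). The centred differences of Rps29 were 0.21 in the 4HT cells and 0.57 in the EtOH cells. Rpl38, which affects the translation of Hox mRNAs, differed by 0.26 ± 0.12 in ES. For G2 the largest differences were those of Rps2 (0.29 ± 0.14), Rpl26, a ribosomal regulator of p53 mRNA (0.25 ± 0.13), and Rps19 (0.21 ± 0.15), none of them called.

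**Figure D5:**
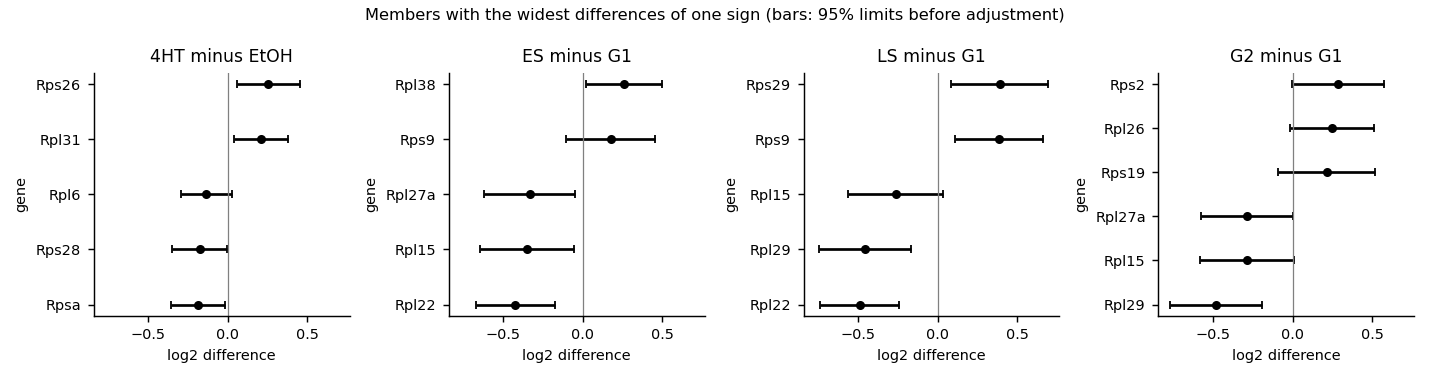
Fitted log2 differences with 95% limits before adjustment for members among the 3 highest and 3 lowest of 1 sign in each contrast. The limits of Rpl22 stay below 0 in ES and LS, from -0.67 to -0.17 and from -0.74 to -0.24, and no member passed the adjusted threshold.

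The deposited table of accessible regions gives the same promoters in narrower intervals. These regions lie inside or beside the windows and share reads with them, so they are no independent measurement. Of the 78 members, 77 (98.7%) had at least 1 region within 1000 bp of the start, against 68.8% of 19169 protein-coding genes. The exception was Rpl3l. The 106 regions were narrower than those at protein-coding starts (median width 420 against 631 bp) and had a higher level (2.68 against 1.90). A read was present in all 8 columns for 78.3% of them, against 68.6%. The highest level was 5.87, in a region of 775 bp at chr7:24883902-24884676 that spans the start of Rps19.

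Of the 106 regions, 63 had a value in every column and a mean level of at least 2, and these were tested among 11010 regions. None was called for 4HT against EtOH in limma (smallest adjusted p 0.891), and 3 passed an unadjusted p of 0.05 (4.76%, against 5.42% of all). The background of called regions was 0% for this contrast and for ES and LS against G1, and 0.0182% for G2. No member region was called for ES, LS or G2 against G1 either. At an unadjusted p of 0.05, 4 (6.35%), 3 (4.76%) and 3 (4.76%) passed, against 7.13%, 7.28% and 5.90% of all regions. Among the 3 regions that passed the unadjusted p for 4HT against EtOH were those of Rplp2 and Rps26, genes named above from their windows. At Rplp2 (chr7:141447101-141447832) the deposited signal in CPM, not the level, was 0.187, 0.163, 0.246 and 0.258 in G1, ES, LS and G2 after 4HT, and 0.575, 0.214, 0.315 and 0.501 in the controls. Each control value exceeded its 4HT partner, and the log2 difference was -0.61 ± 0.23 (adjusted p = 0.891). At Rps26, in the region of level 3.54, which lies 189 bp from the start, it was 0.52 ± 0.21. The other tested region of Rps26, which spans the start, had 0.37 ± 0.23 and did not pass the unadjusted p.

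Rpl22 again had the widest fraction difference. Its tested region (chr4:152325312-152325985) had a signal in CPM of 0.597 and 0.431 in G1, 0.203 and 0.242 in ES, 0.132 and 0.199 in LS and 0.357 and 0.239 in G2 (4HT, then EtOH). Both G1 values were above the other 6, and the log2 difference from G1 was -1.29 ± 0.29 in LS (adjusted p = 0.421), -0.88 ± 0.29 in ES (adjusted p = 0.615) and -0.66 ± 0.29 in G2 (adjusted p = 0.839). The region covers the stretch of Rpl22 printed above, which holds neither an ETS core nor a TOP motif.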

How the data were processed

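ATAC-seq of 16 libraries in 8 groups was deposited by the authors as coverage signal, 1 column for each group, over TSS windows of 5000 bp and over accessible regions. The submitters' processing notes name build mm10, featureCounts and DESeq2, without saying what each tool did or its version. Aligner, coverage program and region caller are not given in the sources used here. The unit, signal in CPM averaged over covered bases with no value where no read fell, was read from the deposited values, and the smallest value of a column was taken as 1 read. A weak window cannot fall below that value, so losses are understated. A window's reference point lies 150 bp from its midpoint.

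Windows with a value in all 8 columns and a mean level of at least 1.3 (15323 of 38053), and regions of at least 2 (11010 of 127646), were tested. Values were taken as log2(signal + 0.1), which understates folds of low windows, and centred by cyclic loess. An additive model of treatment and fraction over 8 columns (3 residual degrees of freedom) was fitted in limma 3.58.1 under R 4.3.3, with trend and robust moderation and Benjamini-Hochberg adjustment over all tested windows. The p-values measure the spread among pooled columns, which may be technical. In simulated data for 4HT against EtOH with 200 changed windows of 15323, 28% of changes of 0.5 and 63.5% of changes of 1 (log2) were recovered. These changes were added on the scale of log2(signal + 0.1), so neither the floor of 1 read nor the added 0.1 reduced them. Recovery of folds in the signal itself was not tested.

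Members and lists were chosen with earlier results of these data known. Named were the 5 highest and 5 lowest levels, per contrast the 3 highest and 3 lowest differences of 1 sign, and members by role, and of each list of other translation genes the 2 highest and 2 lowest differences. Rps4l, listed among the paralogs, is annotated as a pseudogene and was left out. Results of some genes covered by this rule are not reported here.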

Additional observations from a re-analysis of the deposited data

Results flagged for a closer look

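For each tested member the 4 differences between 4HT and EtOH, 1 per fraction, were searched for a single fraction far from the other 3 (Dixon's test at 95%). Of 77 members 7 had one (9.09%), against 5.27% of all tested windows, and chance gives about 1 in 20. Each fraction holds 1 column for each treatment, so these values have no replicate check.

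Values are given for 5 of them. In G1, Rpl3, a large-subunit protein at the peptidyl transferase centre, differed by -0.27 against 0.03 to 0.07 elsewhere. In ES, Rpl21 differed by 0.11 while the other 3 fractions lay at -0.24 to -0.20, and Rpl8 by -0.20 against 0.03 to 0.05. In LS, Rpl24 differed by 0.11 against -0.23 to -0.18. In G2, Rps9 differed by 0.22 against -0.13 to -0.10.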

How the results depend on the processing

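No member window and no member region was called under any of the alternatives run, where the smallest adjusted p of any member was 0.466 for 4HT against EtOH, 0.318 for ES, 0.129 for LS and 0.576 for G2 against G1. The level of the members stayed at 1.61 to 1.67. The members' median difference ranged from 0.0026 to 0.03 for 4HT and changed sign with the setting for ES (-0.08 to 0.01), LS (-0.07 to 0.05) and G2 (-0.07 to 0.11) against G1. As deposited without centring, the median of all tested windows lay at -0.06, -0.06 and -0.09 in those 3 contrasts, and members above 0 fell from 34, 34 and 47 of 77 to 20, 23 and 30.

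The counts over all windows, the background of the members' counts, did move. For 4HT against EtOH, 2 windows were called, and 0 with a pseudocount of 2, with no level filter, as deposited without centring or without the G2 fraction. The count was 1 with the higher minimum level of 2, without trend or robust moderation and without the G1 fraction, and 4 without the ES fraction. For ES against G1, 3 became 1 with no level filter or the higher minimum and 0 as deposited. For LS, 11 became 4 with no level filter or the higher minimum, 0 as deposited and 6 without trend or robust moderation. For G2, 7 became 4 as deposited. The cause was not tested. The higher minimum left 10 members. Leaving out single fractions for the regions, and the members with a start in the promoter table, were alternatives chosen after seeing the data. No paired analysis was possible because the columns carry no replicate numbers that pair libraries, although the fraction term pairs the 4HT and EtOH columns of a fraction. A read pile of 1 to 2 in most windows limits what these depths can show.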
